A study of Mus musculus with 4 samples.

Results

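Genes of blood vessel endothelium and of angiogenesis were compared between the dorsal and the ventral part of the mouse tracheoesophageal anlage. The set held 38 genes that were listed by name, and their values came from probe sets whose only gene symbol in the platform annotation was one of these names. All 38 were found, among 18194 genes named on the array, and 37 of them passed the filter on low values. The anlage is the foregut tube from which the esophagus, trachea and lungs arise, and around E9.75 its ventral wall begins to swell into the lung bud. The tube was taken from BALB/c embryos at E9.75 and cut by hand under the microscope. No treatment or engineered allele is given in the labels. There were 2 Affymetrix arrays per part, called biological replicates by the labels. Whether their RNA was drawn from different litters or pools is not stated, so a p-value here reflects the scatter of these arrays alone. Each sample held epithelium, mesenchyme, vessels and blood together.

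Endothelial cells line all vessels and are induced and guided by secreted ligands made largely by the tissues around them. Vascular endothelial growth factors act through the receptors encoded by *Kdr*, *Flt1* and *Flt4*, angiopoietins act through the TIE2 receptor encoded by *Tek*, and apelin and adrenomedullin act through G protein-coupled receptors. ETS family transcription factors keep endothelial genes active, and further factors set arterial, venous and lymphatic identity. In the embryo, the paired dorsal aortae run beside the foregut on its dorsal side, while the heart, the sinus venosus and the veins that reach it lie ventrally.

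Values are RMA values, read as log2, and each difference is the dorsal mean minus the ventral mean, so that 1 unit is a factor of 2 and a negative difference is a higher ventral level. Over all 13139 tested genes the median difference was 0.07. Ventral replicate 2 stood apart in its spread of values, with an upper quartile of 7.75 against 8.02 on ventral replicate 1. Of the 37 tested members, 30 were higher on ventral replicate 1 than on ventral replicate 2, as were 75.8% of all tested genes. The median gap between replicates of the members was 0.13 dorsally and 0.26 ventrally. With so few arrays the smallest two-sided p of an exact permutation test is 0.333, and calls therefore rest on limma, whose variance estimate is shared over genes.

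In the ventral part, 3 secreted vessel ligands were higher, *Vegfc*, *Angpt1* and *Angpt2*, together with the endothelial regulators *Etv2* and *Lmo2*. In the dorsal part *Vwf*, the gene of von Willebrand factor, was higher, by 8.77-fold against the 40th percentile of the ventral arrays, below which its ventral values lay. None of the 10 receptor genes and none of the 8 genes of surface and junction proteins passed the test. Thus 5 of 37 tested members were called ventrally (13.5%) and 1 dorsally (2.70%), where 4.09% of all tested genes were called ventrally and 4.79% dorsally (limma, adjusted p under 0.05 over all tested genes). In both directions together these were 6 members (16.2%) against 8.88% of all tested genes. The arrays of the parts did not overlap in 21 members (56.8%), which is near the 50.9% of all tested genes. Both ventral arrays were on top in 16 members (43.2%) against 17.6% of all tested genes, and both dorsal arrays in 5 (13.5%) against 33.3%. In such bulk tissue, fewer cells of a type and less RNA per cell cannot be told apart.

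**Figure D1:**
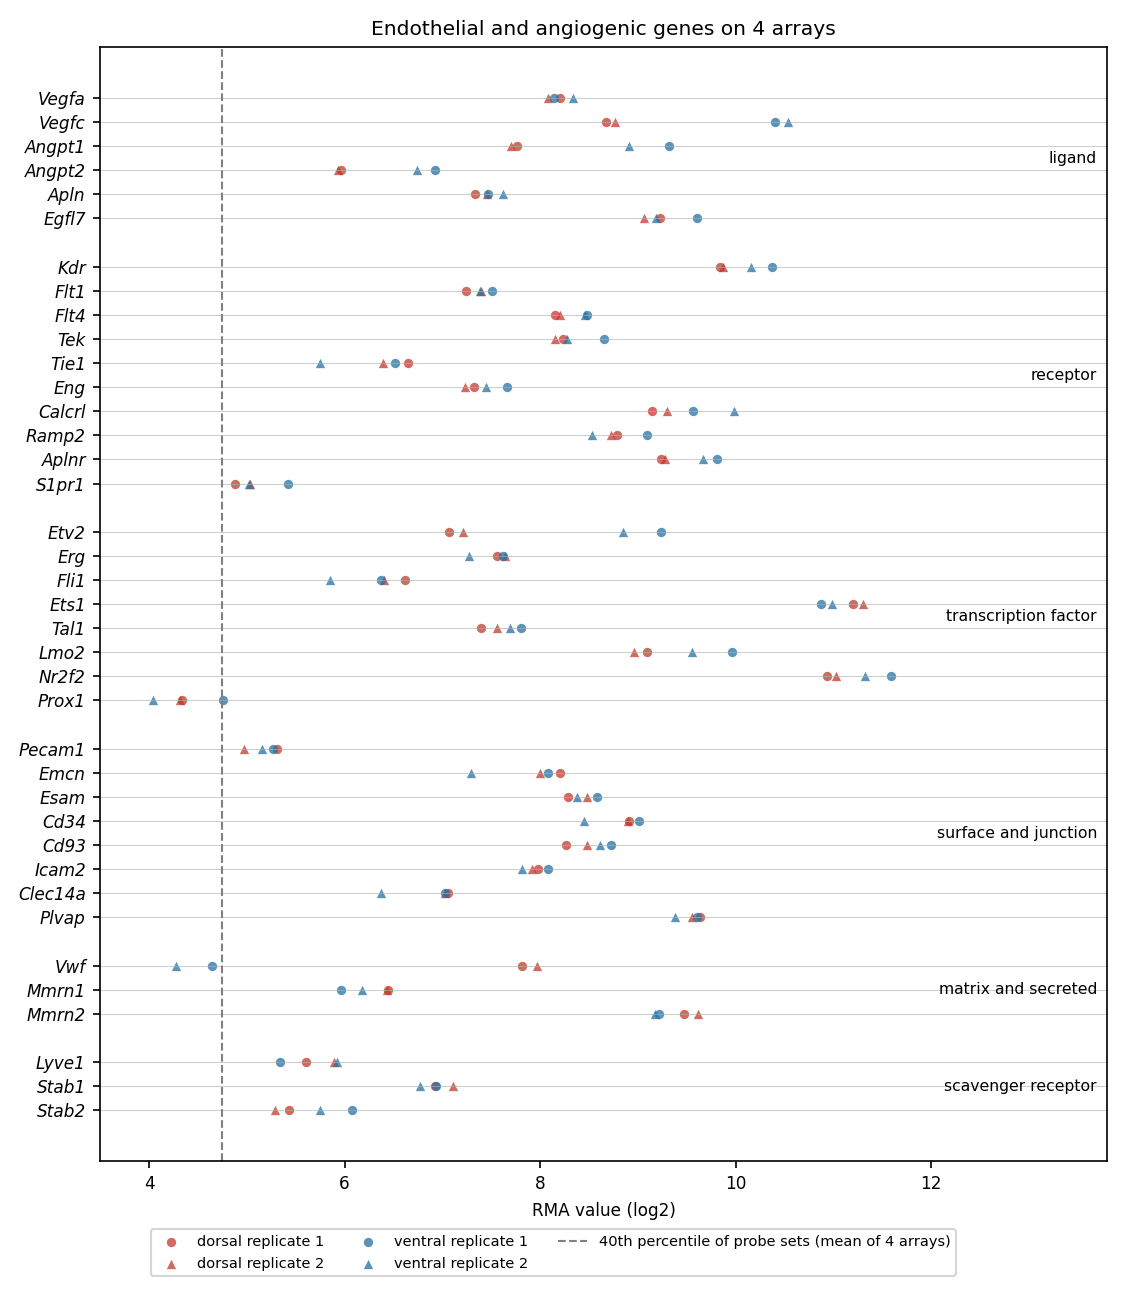
RMA values (log2, horizontal axis) of the 38 endothelial and angiogenic genes, grouped by role, with 1 point per array (red dorsal, blue ventral, circles replicate 1, triangles replicate 2). The points of *Vegfc*, *Angpt1*, *Angpt2* and *Etv2* separate with the ventral arrays to the right, and those of *Vwf* separate with the dorsal arrays to the right and the ventral arrays left of the 40th percentile.

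Among the 6 ligands of the set, *Vegfc* showed the largest difference. It encodes the growth factor that binds the receptor of *Flt4* and drives lymphatic and venous sprouting. The dorsal arrays read 8.67 and 8.77 and the ventral ones 10.41 and 10.54, so each ventral array lay far above both dorsal ones. This is 3.37-fold, or a difference of -1.75 (SE 0.17, n = 2 per part, limma adjusted p = 8.96e-08). All 3 probe sets of *Vegfc* passed, and the others gave 8.62 and 8.45 dorsally against 10.32 and 9.88 ventrally, and 7.99 and 7.96 dorsally against 9.77 and 9.45 ventrally. *Vegfc* passed under every alternative setting that kept all 4 arrays, and over all 13 alternatives its differences ran from -1.86 to -1.56.

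*Angpt1*, which encodes the activating ligand of TIE2 and is known to be made by mesenchyme and heart muscle, had 7.76 and 7.70 dorsally and 9.31 and 8.91 ventrally. The groups did not overlap, and the level was 2.60-fold higher ventrally, a difference of -1.38 (SE 0.18, adjusted p = 7.58e-06 from limma). A second *Angpt1* probe set lay low on all arrays, at 4.96 and 4.89 dorsally and 5.73 and 4.88 ventrally, and did not pass the test. *Angpt2* encodes a ligand of the same receptor that opposes or supports *Angpt1* depending on context. Its values were 5.96 and 5.93 dorsally and 6.93 and 6.74 ventrally, a difference of -0.89 (SE 0.17, adjusted p = 0.000852 from limma). The groups did not overlap, but this call was lost without dorsal replicate 1 (-0.90), without dorsal replicate 2 (-0.87) and with the mean of its probe sets (-0.39), the second of which lay between 3.80 and 3.98 on all arrays.

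The other 3 ligands did not pass. *Vegfa*, the main growth factor of endothelial cells and a gene induced by low oxygen, had 8.20 and 8.08 dorsally and 8.14 and 8.34 ventrally, so the parts overlapped, and its difference of -0.10 had a 95% interval from -0.45 to 0.26. *Apln*, which encodes the peptide apelin of sprouting tips, differed by -0.15 with an interval from -0.51 to 0.20. *Egfl7*, which encodes a secreted protein of endothelial cells, differed by -0.25 with an interval from -0.62 to 0.13.

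The receptors of these ligands were measured beside them. *Flt4*, whose product binds VEGF-C, had 8.15 and 8.21 dorsally and 8.48 and 8.46 ventrally. The ventral arrays were higher, yet the difference of -0.29 had an adjusted p of 0.376 from limma, against -1.75 for its ligand. *Tek* had 8.23 and 8.15 dorsally and 8.65 and 8.27 ventrally, a difference of -0.27 (adjusted p = 0.447 from limma). *Tie1*, an orphan receptor that pairs with TIE2, was at 6.65 and 6.39 dorsally and 6.51 and 5.75 ventrally, with overlapping parts. Whether ligand and receptor differences differ from each other was not tested.

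*Kdr*, the principal signalling receptor for VEGF-A, had 9.84 and 9.87 dorsally and 10.38 and 10.16 ventrally, a difference of -0.42 (SE 0.17, adjusted p = 0.167 from limma). *Flt1*, which encodes a decoy-like receptor of VEGF-A, differed by -0.13 with overlapping parts. The largest receptor difference was that of *Calcrl*, the receptor of adrenomedullin, at 9.15 and 9.30 dorsally and 9.57 and 9.98 ventrally (-0.55, adjusted p = 0.0639 from limma). *Ramp2*, whose product gives CALCRL its preference for adrenomedullin, differed by -0.06. *Calcrl* did pass with the filter at the 60th percentile, with a trend or robust spread and with the replicate block. Without ventral replicate 1, which leaves 1 ventral array, it differed by -0.76. Its dimmer probe sets differed by -0.23, which did not pass, and by 0.36, which was not tested. The mean over all 3 probe sets differed by -0.14.

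*Aplnr*, the receptor of apelin and a gene of early veins, had 9.24 and 9.28 dorsally and 9.81 and 9.67 ventrally (-0.48, adjusted p = 0.0906 from limma). *Eng*, a co-receptor for TGF-beta and BMP ligands, differed by -0.27 and *S1pr1*, a receptor for sphingosine-1-phosphate, by -0.27. In all, 9 of the 10 receptors had a negative difference, where the median difference of all tested genes was 0.07. In 6 receptors (60%) both ventral arrays lay above both dorsal ones, against 17.6% of all tested genes. The median receptor difference was -0.27, and none exceeded 0.55 in size. That none of 10 passed is not a result about receptors, since 8.88% of all tested genes did, and several passed under other settings. *Kdr* and *Aplnr* passed with quantile normalization (-0.53 and -0.60), where 479 of 13138 tested genes were called dorsally and 635 ventrally. Without ventral replicate 1, *Kdr* differed by -0.31, *Aplnr* by -0.41, *Flt4* by -0.28 and *Tie1* by 0.77. Without ventral replicate 2, *Kdr* differed by -0.52, *Aplnr* by -0.55 and *Tek* by -0.46. Such fits keep 1 ventral array and take the spread from the dorsal arrays alone, so no call is read from them.

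**Figure D2:**
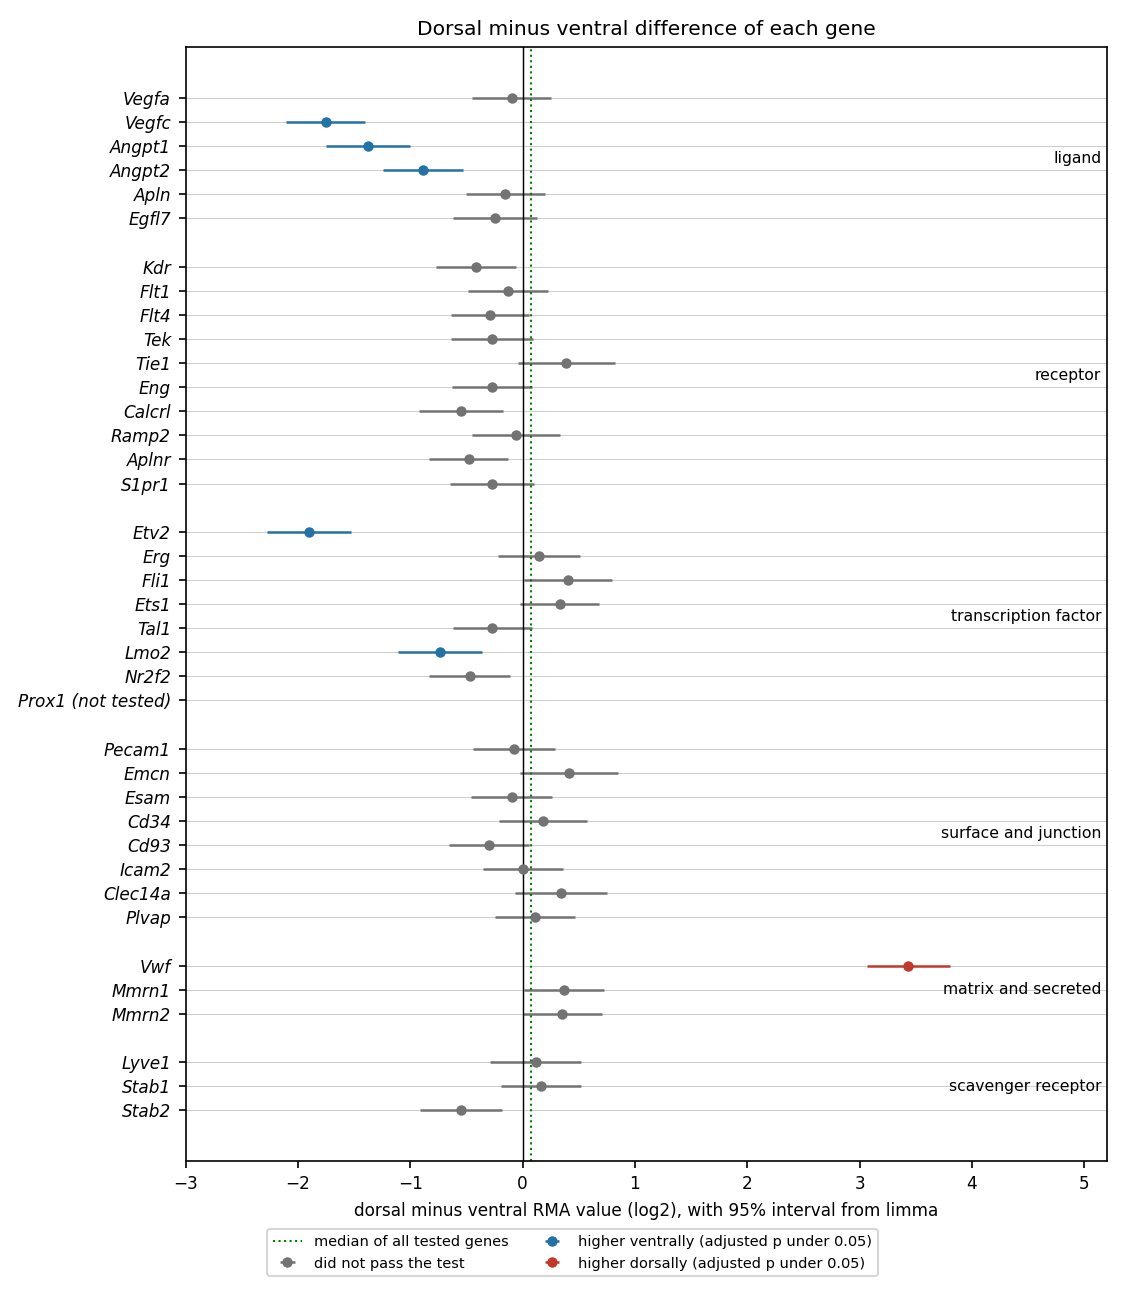
Dorsal minus ventral difference of the RMA value (log2, horizontal axis) of each tested gene, with its 95% interval from limma as a bar, coloured by the call at an adjusted p under 0.05, and with the median of all tested genes as a dotted line. *Vwf* lies at 3.43, *Etv2*, *Vegfc*, *Angpt1*, *Angpt2* and *Lmo2* lie at -1.90 to -0.73, and the intervals of the other genes stay between -0.92 and 0.85.

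Of the transcription factors, *Etv2* differed most. It encodes an ETS factor that starts the endothelial and blood programme in mesoderm and is normally switched off once vessels have formed. It has a single probe set, at 7.07 and 7.21 dorsally against 9.24 and 8.85 ventrally, with no overlap. The difference was -1.90 (SE 0.18, adjusted p = 6.16e-08 from limma) or 3.74-fold. *Etv2* passed under every alternative setting that kept all 4 arrays, and over all 13 alternatives its differences ran from -2.10 to -1.71. The upstream sequences of *Etv2* and *Vegfc* are shown because these genes had the largest ventral differences. Each runs 250 bases 5' to 3' up to the gene's start, from RefSeq on GRCm38.p6, at chr7:30635853-30636102 (minus strand) for *Etv2* and chr8:54077282-54077531 (plus strand) for *Vegfc*. Capitals mark matches on either strand to motifs of ETS factors, for which AGGAAG was searched and also CCGGAA. Matches to the GATA factor motif AGATAA would be capitals too, as would those to the motif of hypoxia-inducible factors, ACGTG.
Etv2: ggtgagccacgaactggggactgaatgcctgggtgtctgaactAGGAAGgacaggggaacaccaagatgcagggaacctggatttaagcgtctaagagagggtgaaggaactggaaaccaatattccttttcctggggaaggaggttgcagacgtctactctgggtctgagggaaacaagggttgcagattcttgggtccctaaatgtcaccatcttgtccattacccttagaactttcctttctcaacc
Vegfc: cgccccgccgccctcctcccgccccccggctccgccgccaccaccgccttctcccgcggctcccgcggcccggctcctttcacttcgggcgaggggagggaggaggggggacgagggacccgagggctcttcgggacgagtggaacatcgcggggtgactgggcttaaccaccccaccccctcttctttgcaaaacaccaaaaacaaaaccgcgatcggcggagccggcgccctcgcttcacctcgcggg

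The *Etv2* window held 1 match, AGGAAG at 207 bases before the start, and the *Vegfc* window, which was 71.6% G or C against a median of 52.4% over all windows, held none. RefSeq windows were found for 22 of the 38 genes, 29 windows in all. AGGAAG stood in 14 of these 29 and in 29.5% of all 32851 windows, CCGGAA in 1 (12.0% of all), AGATAA in 3 (9.99% of all) and ACGTG in 2 (16.6% of all). The AGGAAG windows belonged to *Apln*, *Calcrl*, *Cd34*, *Egfl7*, *Emcn*, *Eng*, *Erg*, *Etv2*, *Flt1*, *Nr2f2*, *Stab1*, *Stab2* and *Tie1*. *Vwf*, *Angpt1*, *Angpt2* and *Lmo2* are not among the 22 genes searched. Such a match describes the letters of the window and is not a measured binding site.

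*Lmo2*, whose product bridges TAL1 and GATA factors in endothelial and blood progenitors, had 9.09 and 8.96 dorsally and 9.97 and 9.56 ventrally (-0.73, SE 0.18, adjusted p = 0.00893 from limma). The parts did not overlap, but the call was lost without dorsal replicate 1 (-0.80) or dorsal replicate 2 (-0.67). Its partner *Tal1* had 7.40 and 7.55 dorsally and 7.80 and 7.69 ventrally, a difference of -0.27 that did not pass (adjusted p = 0.427 from limma). Both genes are also known in red blood cell precursors, and of 8 tested red blood cell genes 5 were higher dorsally and none ventrally, with a list mean of 10.03 to 10.06 on the dorsal and 9.02 to 9.40 on the ventral arrays. The part of blood cells in the values of *Lmo2* and *Tal1* was not tested.

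The ETS factors of established endothelium did not pass the test, and whether they differ from *Etv2* in this was not tested. *Erg* had 7.56 and 7.64 dorsally and 7.62 and 7.28 ventrally, with overlapping parts and a difference of 0.15. *Fli1* had 6.62 and 6.40 against 6.37 and 5.85, a difference of 0.40 (adjusted p = 0.248 from limma). *Ets1*, which is also known in mesenchyme and neural crest, had 11.21 and 11.31 dorsally and 10.87 and 10.98 ventrally. In all 4 of its probe sets both dorsal arrays lay above both ventral ones, as in 33.3% of all tested genes, and none passed the test. The probe sets of 1 gene read the same RNA and are not independent. Of 6 tested neural crest genes 5 were higher dorsally and 1 ventrally, with a list mean of 8.13 to 8.30 dorsally and 6.40 to 6.44 ventrally, and their part in the level of *Ets1* was not tested.

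None of the genes of the endothelial surface and of its junctions passed the test, where 8.88% of all tested genes did. The parts overlapped in 7 of these 8 genes, and did not overlap in 50.9% of all tested genes. *Pecam1*, an adhesion molecule at endothelial contacts, had low values of 5.31 and 4.97 dorsally and 5.26 and 5.16 ventrally, close to the 40th percentile of the array, and a difference of -0.07 with a 95% interval from -0.44 to 0.29. *Icam2*, another endothelial adhesion molecule, had 7.98 and 7.92 dorsally and 8.09 and 7.81 ventrally, a difference of 0.00339. *Plvap*, which encodes the diaphragm protein of fenestrated vessels, differed by 0.11 and *Esam*, a tight junction adhesion molecule, by -0.10.

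*Emcn*, a sialomucin of veins and capillaries, had 8.21 and 8.00 dorsally and 8.08 and 7.29 ventrally, a difference of 0.42. This was 0.02 without ventral replicate 2 and 0.81 without ventral replicate 1. *Clec14a*, a lectin-like endothelial receptor, showed the same form, with 7.06 and 7.03 dorsally and 7.03 and 6.38 ventrally. Its difference was 0.01 without ventral replicate 2 and 0.67 without ventral replicate 1. The sialomucin gene *Cd34* differed by 0.18 and *Cd93*, another C-type lectin gene of endothelium, by -0.30. Among these 8 genes the median difference was 0.05, with 5 above 0 and 3 below it. For all 31 members that were tested and not called, the 95% interval of the difference lay between -0.92 and 0.85, so a 2-fold difference lay outside each interval. This holds for the probe set used with all arrays, since the other probe set of *Lyve1* differed by 1.75, as described with the lymphatic genes. The intervals are also not adjusted over genes. *Pecam1* and *S1pr1*, which are among these genes, had values close to the 40th percentile of the array.

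*Vwf* was the member called dorsally. It marks mature endothelium and encodes the large glycoprotein that endothelial cells store for platelet adhesion. It read 7.81 and 7.97 dorsally and 4.64 and 4.27 ventrally, and these ventral values were under the 40th percentiles of their arrays (4.69 and 4.82). It passed the filter through the dorsal arrays alone. The difference between the measured values was 3.43 or 10.8-fold (SE 0.18, adjusted p = 4.16e-12 from limma), with 3.17 between the arrays numbered 1 and 3.70 between the pair numbered 2. Against the mean of the ventral 40th percentiles it was 3.13 or 8.77-fold, since values that low have no reliable order. *Vwf* has 1 probe set and was not tested without either dorsal array under the filter, which asks for 2 arrays. With no filter it differed by 3.51 without dorsal replicate 1 and by 3.35 without dorsal replicate 2, values that leave 1 dorsal array and take the spread from the ventral arrays alone, so no p is read from them.

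Platelets and their precursors also make von Willebrand factor. The platelet genes *Pf4*, *Itga2b*, *Gp9* and *Gp1bb* differed by 0.00266, -0.20, -0.06 and -0.00273, and each of them failed the test. *Pf4* had 8.37 and 8.55 dorsally and 8.56 and 8.35 ventrally. Of 11 tested genes of blood progenitors and platelets, 1 was called, *Gata2*, which was higher ventrally (-0.61). The part of platelets in the level of *Vwf* was not tested.

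The other genes of matrix and secreted proteins differed little. *Mmrn2*, which encodes an endothelial matrix glycoprotein, had 9.48 and 9.62 dorsally and 9.22 and 9.17 ventrally (0.35, adjusted p = 0.259 from limma). *Mmrn1*, a multimerin of platelets and lymphatic endothelium, had 6.44 and 6.43 dorsally and 5.96 and 6.18 ventrally (0.37, adjusted p = 0.239 from limma). In both the dorsal arrays lay above the ventral ones, as in 33.3% of all tested genes.

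By vessel type, none of the 5 tested members used as markers of veins or lymphatics passed, where 8.88% of all tested genes did. With so few genes this is not a result about vessel type. *Nr2f2*, the regulator of venous identity that is also widespread in mesenchyme, had 10.94 and 11.03 dorsally and 11.59 and 11.32 ventrally (-0.47, adjusted p = 0.108 from limma). It did pass with quantile normalization (-0.58) and with a trend in the spread. When all probe sets were fitted 1 of its 6 passed, at 9.73 and 9.82 dorsally and 10.45 and 10.37 ventrally. *Prox1*, the master regulator of lymphatic fate, had 4.34 and 4.31 dorsally and 4.76 and 4.04 ventrally and was the member left out by the filter, and its other probe sets lay between 2.95 and 4.69. Of all these values that of ventral replicate 1 alone exceeded its array's 40th percentile.

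*Lyve1*, which encodes a hyaluronan receptor of lymphatic and yolk sac endothelium and of some macrophages, gave a different answer with each probe set. The probe set with the higher mean had 5.60 and 5.89 dorsally and 5.34 and 5.92 ventrally, with overlapping parts and a difference of 0.12. The other had 6.17 and 6.02 dorsally and 4.78 and 3.92 ventrally, a difference of 1.75 (adjusted p = 0.00159 from limma over all named probe sets). Of 11 macrophage markers on the array 8 lay below the 40th percentile on all arrays, among them *Mrc1*, *Cx3cr1* and *Aif1*. The 3 tested ones were not called, with a list mean of 5.52 to 5.62 dorsally and 5.57 to 5.99 ventrally. The part of macrophages in the *Lyve1* values was not tested. Over the 76 probe sets of the 38 genes, 66 were tested, 2 were called dorsally and 8 ventrally, where 3.28% and 2.56% of all tested probe sets were called.

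The scavenger receptor gene *Stab2* of sinusoidal endothelium had 5.43 and 5.29 dorsally and 6.08 and 5.75 ventrally (-0.55, adjusted p = 0.0568 from limma). It passed with robust spread and with the replicate block. It differed by -0.38 without ventral replicate 1 and by -0.71 without ventral replicate 2. Its relative *Stab1*, which is also made by macrophages, had 6.93 and 7.11 dorsally and 6.93 and 6.77 ventrally. Of 6 tested hepatic genes 3 were higher ventrally, with a list mean of 6.40 to 6.43 dorsally and 7.69 to 7.73 ventrally, and the part of the liver bud in the *Stab2* value was not tested.

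**Figure D3:**
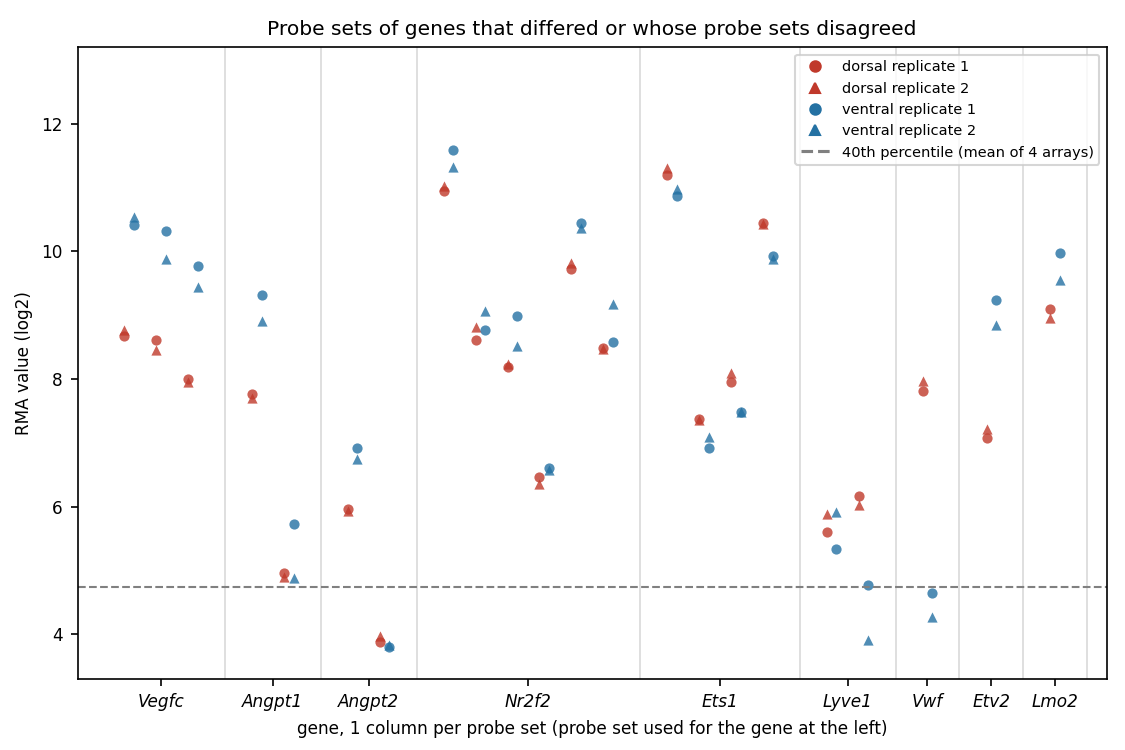
RMA values (log2, vertical axis) of every probe set of 9 genes, 1 column per probe set with the one used for the gene at the left of its block, and 1 point per array (red dorsal, blue ventral). All 3 probe sets of *Vegfc* lie higher ventrally, while those of *Lyve1* disagree and the second one of *Angpt2* lies below the 40th percentile.

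Further genes of these pathways were read from lists, of which the venous and lymphatic ones also hold members. Some genes stand in more than 1 list, so the counts of the lists are not independent. *Sox17* is counted among both the other endothelial and the arterial genes, and *Dll4* among both the ligands and the arterial genes. Of 11 tested ligands, co-receptors and modulators related to the members, 4 were higher ventrally, 2 dorsally and 5 did not pass. *Adm*, which encodes adrenomedullin and is induced by low oxygen, had 8.03 and 8.18 dorsally and 10.64 and 10.73 ventrally, a difference of -2.58 (5.97-fold, adjusted p = 1.95e-10 from limma), beside -0.55 for its receptor gene *Calcrl* and -0.06 for *Ramp2*. *Apela*, which encodes a second peptide ligand of the apelin receptor, had 6.50 and 6.40 dorsally and 8.70 and 8.22 ventrally, a difference of -2.01 (4.03-fold, adjusted p = 3.84e-08 from limma), beside -0.15 for *Apln* and -0.48 for *Aplnr*. *Pgf*, a ligand of the receptor of *Flt1*, differed by -0.93 and *Ramp1*, which turns CALCRL into a receptor for CGRP, by -0.85.

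*Nrp1*, a co-receptor for VEGF-A and semaphorins, was higher dorsally (0.58), as was *Ramp3* (0.57), a further partner of CALCRL. In this list the median difference was -0.02.

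Of 18 other endothelial genes, 15 did not pass, the median difference was -0.03, and *Cdh5*, the endothelial cadherin, had 7.29 and 7.12 dorsally and 7.09 and 6.72 ventrally. *Ptprb*, a phosphatase that restrains TIE2, and *Sox17*, an arterial factor that is also known in endoderm, were higher dorsally (1.01 and 0.98), and the receptor gene *Gpr182* was higher ventrally (-0.84).

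Of 12 tested arterial genes, 4 were higher dorsally, 2 ventrally, and 6 did not pass. Of all tested genes, 4.79% were called dorsally and 4.09% ventrally. *Gja4*, which encodes the arterial connexin 37, had 8.38 and 8.42 dorsally and 6.41 and 5.80 ventrally, a difference of 2.29 (4.91-fold, adjusted p = 1.01e-08 from limma). *Hey2*, a Notch effector, had 5.33 and 5.31 dorsally and lay below the 40th percentile ventrally at 3.55 and 3.67. Like *Vwf*, *Hey2* passed the filter through the dorsal arrays alone. *Efnb2*, the arterial ephrin that mesenchyme also makes, differed by 1.21. The guidance receptor gene *Unc5b* (-1.68) and the Notch ligand gene *Jag1* (-1.34), both also known outside arteries, were higher ventrally. The median of the list was 0.24, and *Dll4* and *Notch4*, the arterial Notch ligand and receptor of endothelium, differed by 0.07 and 0.25 without passing.

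Of 4 venous genes none passed, where 8.88% of all tested genes did. Of the 4, 2 are the members *Nr2f2* and *Aplnr* given above, and *Ephb4*, the venous receptor of ephrin-B2, differed by 0.11. Of 10 tested lymphatic genes, 3 are the members *Flt4*, *Lyve1* and *Mmrn1*. Of the other 7, *Ccbe1* (1.24), whose product helps to process VEGF-C, and the forkhead gene *Foxc2* (1.02) were higher dorsally. *Reln*, a secreted glycoprotein gene, was higher ventrally at -2.01. *Ccbe1* and *Foxc2* are also known in mesenchyme, and the median of the list was 0.09.

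**Figure D4:**
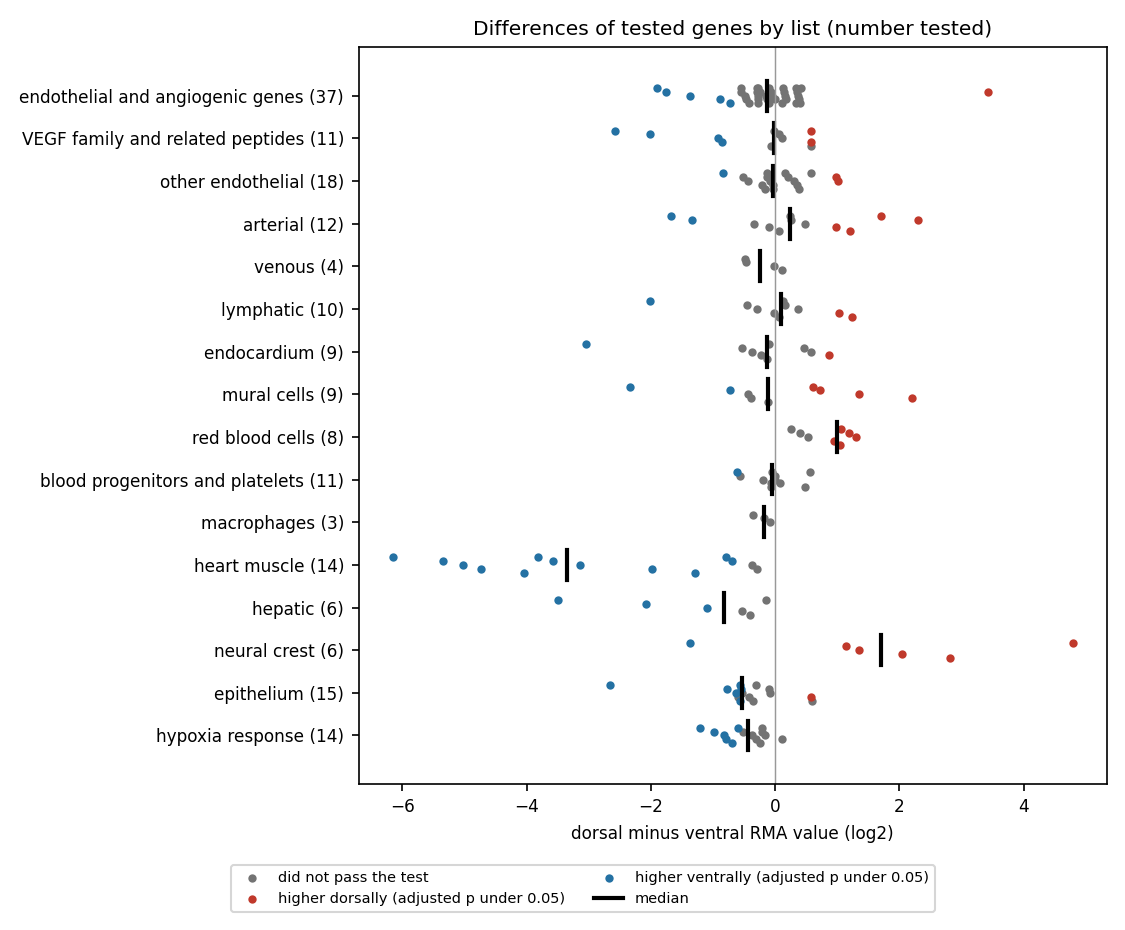
Dorsal minus ventral difference (log2, horizontal axis) of the tested genes of each list, each drawn as a point whose colour gives its call, with a bar at the list's median and the number tested in brackets. The 37 endothelial and angiogenic genes centre at -0.13, close to the other endothelial genes at -0.03, while heart muscle genes centre at -3.36 and red blood cell genes at 0.99.

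The heart muscle and epithelial lists also held more ventral than dorsal calls. The red blood cell and neural crest lists given above held more dorsal ones. Of 14 tested heart muscle genes 12 were higher ventrally, with a list mean of 6.07 to 6.08 on the dorsal and 8.90 to 9.15 on the ventral arrays, while *Myl2* and *Nppa* lay below the 40th percentile on all arrays. Heart muscle is a known source of *Angpt1*, and the part of heart tissue in the ventral levels of *Vegfc*, *Angpt1*, *Angpt2*, *Adm* and *Apela* was not tested. Of 9 tested endocardial genes, *Gata4* (-3.05), which heart muscle and foregut mesoderm also express, was higher ventrally and *Postn* (0.87) dorsally, and *Nfatc1*, a defining gene of endocardium, had 5.69 and 5.76 dorsally and 6.30 and 6.21 ventrally (adjusted p = 0.0522 from limma). Of 15 epithelial genes 6 were higher ventrally and 1 dorsally, with a list mean of 8.99 to 9.03 dorsally and 9.34 to 9.61 ventrally.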

How the data were processed

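Dorsal and ventral foregut tissue of BALB/c embryos at E9.75 was profiled on 4 Affymetrix arrays, 2 per part, each from 100 ng of RNA. The authors deposited RMA values, a method named in the submitters' processing notes, which are taken here as log2 from their range of 2.36 to 15.02. Neither the scale nor the RMA software is stated in the sources used here. Precision is limited by the small number of arrays.

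Probe sets were named through the platform annotation in GEO, in which 34958 of 45101 carried a single symbol, 932 carried several and 9211 are unnamed here. Identifiers of 34754 matched the RefSeq table of GRCm38.p6, with 0 symbols altered. Each gene was represented by its probe set of highest mean, and the 13139 genes that exceeded the 40th percentile of an array on 2 or more arrays were tested. The limma 3.58.1 fit (lmFit, eBayes; R 4.3.3) was two-sided and covered all these genes, with Benjamini-Hochberg adjustment and a threshold of 0.05, and was tested on simulated data. Errors and 95% intervals are moderated, and the intervals are not adjusted. A second fit took every named probe set. A level relative to the median of the other endothelial genes was computed but is not reported, since that median differed by 0.35 between the parts while the median of the genes' differences was -0.03.

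The members and all gene lists were chosen with earlier results of these data known, and lists are described by counts and medians without a set test. Named genes are the 38 members, up to 4 called genes of each vascular list, and others named after their values were seen. The alternatives were other filters, normalizations, probe set rules, variance models and thresholds, the replicate number as a block, and the omission of each array. Differences within each replicate number, those against the 40th percentile, and that of *Vwf* with no filter and 1 dorsal array were chosen after seeing the data.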

Additional observations from a re-analysis of the deposited data

How the results depend on the processing

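Of the 6 called genes, *Vegfc*, *Angpt1*, *Etv2* and *Vwf* passed under every alternative that kept all 4 arrays. No pass and no count of calls is read from settings that left out an array, which keep 1 array in a part. *Vwf* was not tested where a dorsal array was left out, so it is absent from the calls there without having failed the test. Its ventral values lay below the cut of the low-value filter on both ventral arrays. The passes of *Vwf* thus set a dorsal signal against values of no reliable order and do not test the size of its difference. All 6 passed at an adjusted p under 0.01. The number of members higher dorsally was 1. It was 2 with the mean of all probe sets (*Vwf* and *Lyve1*), where 441 of 12381 tested genes were called dorsally. The number higher ventrally was 5. It was 8 with quantile normalization once more, where 635 of 13138 tested genes were called ventrally. At an adjusted p under 0.10 it was also 8, where 667 of 13139 tested genes were called ventrally. The 9 dorsal and 11 ventral calls came without ventral replicate 1, where 4544 and 1593 of all tested genes were called and the spread came from the dorsal arrays alone. Without ventral replicate 2 the members' counts were 3 dorsal and 10 ventral, and without dorsal replicate 1 or 2 they were 0 and 3. With quantile normalization once more, the split of all calls was 479 dorsal and 635 ventral, where it was 629 and 538. The deviations of same-numbered arrays correlated at 0.14 over all tested genes. With the replicate block the members' counts were 1 dorsal and 7 ventral, with *Calcrl* and *Stab2* added, where 790 and 678 of 13139 tested genes were called. The labels do not say that the numbers pair the arrays.

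Among the members, differences changed sign only in genes that did not pass with all arrays, and none of the reversed values passed. With quantile normalization *Icam2* was at -0.10 and *Plvap* at -0.012, with equal medians *Icam2* was at -0.00221, while *Erg*, averaged over its probe sets, was at -0.12. With 1 array left out, *Icam2* ranged from -0.13 to 0.14, *Plvap* from -0.011 to 0.22, *Erg* from -0.024 to 0.32, *Pecam1* from -0.24 to 0.095, *Ramp2* from -0.34 to 0.22, *Vegfa* from -0.20 to 0.00035, *Cd34* from -0.10 to 0.46 and *Lyve1* from -0.17 to 1.32. The 1.32 of *Lyve1* came without ventral replicate 2, where its other probe set had the higher mean. The causes were not tested. *Lmo2* has no value without probe sets ending in _s_at, _x_at or _a_at.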

Other observations

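Genes of the cells that wrap vessels and genes of low oxygen were read on the same arrays. Of 9 tested genes of mural cells, the pericytes and smooth muscle cells of vessels, 4 were higher dorsally and 2 ventrally. *Rgs5*, a regulator of G protein signalling in pericytes, had 6.64 and 6.62 dorsally and 8.98 and 8.96 ventrally, a difference of -2.34 (adjusted p = 7.85e-10 from limma), whereas *Pdgfrb*, the receptor by which pericytes are recruited, differed by 0.60 the other way. *Tagln*, which encodes a smooth muscle actin-binding protein, had 10.32 and 10.30 dorsally and 8.34 and 7.87 ventrally (2.21, adjusted p = 8.69e-09 from limma), and *Abcc9*, a potassium channel subunit gene, differed by 1.34. All of these genes are also known outside vessel walls.

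Of 14 genes that respond to low oxygen, 6 were higher ventrally and none dorsally, with a median of -0.44. *Ndrg1* (-1.22), *Bnip3* (-0.98), *Pdk1* (-0.82) and *Ddit4* (-0.79) differed most among them, and *Adm*, described with the ligands, differed by -2.58. *Vegfa*, a gene of the same response, differed by -0.10 with an interval from -0.45 to 0.26. *Slc2a1*, a glucose transporter gene of the list, and *Pgk1*, one of its glycolysis genes, differed by -0.31 and -0.21 and did not pass.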
